A study of Mus musculus with 8 samples.

Results

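The genes that encode cholesterol and fatty acid synthesis were followed in mouse embryonic stem cells that lose Htatsf1. The set holds 34 gene names of the pathways, chosen by name without a threshold on any value, but with earlier results of these data known. Of these, 33 were found among the 20388 genes kept from the 8 gene tables, and Hmgcs1 was not analysed here. They fall into a sterol branch of 25 genes, made of 17 pathway enzymes and 8 regulators or sterol carriers, and a fatty acid branch of 8 genes (Fasn, Acaca, Acly, Scd1, Scd2, Elovl6, Fads1 and Fads2). All 33 passed the filter on low values, an FPKM (fragment count scaled for transcript length and library depth) of at least 1 in at least 2 libraries, which 11867 genes passed.

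The cells of every group came from tatsf1 flox/flox CreERT2 mice. CreERT2 is a recombinase that tamoxifen switches on, so that the ethanol controls carry the same alleles and recombinase without the drug that drives the deletion. There were 4 groups of 2 libraries: ethanol for 48 h, tamoxifen for 48 h, ethanol for 72 h and tamoxifen for 72 h, and polyadenylated RNA was sequenced as paired ends. None of the 4 groups had tamoxifen without the floxed allele, so the drug, the activated recombinase and the deletion cannot be told apart. All groups were grown on mouse embryonic fibroblasts (MEFs). Whether a pair of libraries stems from 2 cultures or 1 is not given in the labels, and each p-value reflects library-to-library spread that could be technical only. The 48 h and the 72 h libraries carry separate runs of barcode numbers, so time and any shared handling of a time point cannot be told apart.

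Cells build cholesterol from acetyl-CoA through mevalonate, farnesyl diphosphate, squalene and lanosterol. The transcription factors SREBP-1 (gene Srebf1) and SREBP-2 (Srebf2) drive the genes of this route and of fatty acid synthesis. SCAP escorts the SREBP precursors out of the endoplasmic reticulum when sterols are low, INSIG proteins hold them back when sterols are high, and the proteases encoded by Mbtps1 and Mbtps2 release the active factor. Fatty acid synthesis starts from the same acetyl-CoA, which ATP citrate lyase (Acly) makes in the cytosol. Insig1 is itself an SREBP target.

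The promoters of some genes at the centre of the results are shown first, to describe the letters upstream of them. Whether letters and changes go together was not tested. Each window holds the 250 bases before the gene's start in RefSeq on GRCm38.p6, 5′ to 3′ on the gene's strand. Capitals mark the CCAAT box, to which NF-Y binds, and the sterol regulatory element core CACNCCAC, each on either strand. The window of Sc4mol, now named Msmo1, is chr8:64733579-64733828 on the minus strand, and the gene is the enzyme with the largest fall. That of Mvk is chr5:114444019-114444268 on the plus strand and holds the most CCAAT boxes of the genes printed. That of Insig1 is chr5:28071162-28071411 on the plus strand, and the gene is 1 of 2 with the core among the 26 genes searched. That of Scap is chr9:110333038-110333287 on the plus strand, before the first of 2 starts, and the gene is the 1 that rose.
Sc4mol: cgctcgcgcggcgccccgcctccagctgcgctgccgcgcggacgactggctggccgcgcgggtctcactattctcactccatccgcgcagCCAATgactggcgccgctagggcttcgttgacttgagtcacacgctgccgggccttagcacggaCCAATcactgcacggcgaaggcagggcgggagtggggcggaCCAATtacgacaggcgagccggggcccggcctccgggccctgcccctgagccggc
Mvk: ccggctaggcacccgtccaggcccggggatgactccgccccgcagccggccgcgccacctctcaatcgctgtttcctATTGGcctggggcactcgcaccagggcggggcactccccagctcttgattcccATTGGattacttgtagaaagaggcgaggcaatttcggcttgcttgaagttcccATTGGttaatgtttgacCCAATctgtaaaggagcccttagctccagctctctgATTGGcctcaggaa
Insig1: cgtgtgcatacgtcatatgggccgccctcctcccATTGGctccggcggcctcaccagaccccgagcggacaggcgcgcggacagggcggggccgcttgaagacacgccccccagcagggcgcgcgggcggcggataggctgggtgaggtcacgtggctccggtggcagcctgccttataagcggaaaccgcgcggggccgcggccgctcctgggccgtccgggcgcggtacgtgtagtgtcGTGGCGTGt
Scap: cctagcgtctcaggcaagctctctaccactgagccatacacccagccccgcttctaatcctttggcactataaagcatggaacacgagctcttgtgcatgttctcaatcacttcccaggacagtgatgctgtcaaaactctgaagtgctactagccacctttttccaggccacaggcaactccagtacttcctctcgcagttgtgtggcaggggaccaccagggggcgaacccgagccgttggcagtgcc

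RefSeq windows were matched for 26 of the 33 genes, 21 of the sterol branch and 5 of the fatty acid branch. Sqle, Fdps, Fdft1, Stard4, Scd1, Scd2 and Fads1 had no window and were not searched. The CCAAT box was present upstream of 17 of the 21 sterol branch genes (81.0%) and of 1 of the 5 fatty acid branch genes, Fasn, against 41.2% of 9527 tested genes with a window. Some genes have several starts and so several windows. Counted per window, 62.1% of 29 sterol branch windows held it, against 35.6% of 12210 windows of tested genes. Sc4mol has 3 CCAAT boxes and Mvk has 5, spread over both strands, while the Scap window shown has none. Genes with the box that fell at 72 h were Cyp51, Dhcr7, Idi1, Insig1, Mvd, Mvk, Nsdhl, Pmvk, Sc4mol, Srebf2 and Tm7sf2. Ebp, Hsd17b7, Insig2, Lss, Sc5d, Srebf1 and Fasn have it and did not pass, while Acat2, Acly and Fads2 fell without it. Acaca, Elovl6, Mbtps1 and Mbtps2 lack it and did not pass, and Scap lacks it and rose. The GC box GGGCGG, searched on both strands like every motif here, lay upstream of 19 of 21 sterol branch genes (90.5%), 2 of 5 fatty acid branch genes and 66.6% of tested genes. Per window it was in 75.9% of the sterol branch windows and 59.6% of the windows of tested genes. The E-box CACGTG was found upstream of 5 of 21 sterol branch genes (23.8%), none of the 5 fatty acid branch genes and 10.2% of tested genes. Per window the shares were 17.2% in the sterol branch and 8.5% among tested genes. The core CACNCCAC was found upstream of Acat2 and Insig1 only, 2 of 26 genes, against 6.6% of tested genes. In Insig1 it starts 9 bases before the gene's start, at position -9. The longer letters TCACNCCAC, which contain that core, were found in no window of the set and upstream of 1.2% of tested genes. These matches describe letters, not bound sites, and a window without a match says nothing of the factor.

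Libraries held between 8.99 and 16.85 M fragments, as implied by the confidence bounds in the files, with medians of 260 to 531 fragments per tested gene. Genes of the set rested on at least 29 implied fragments (Tm7sf2 in its lowest library) and at most 13337 (Fasn in its highest). Htatsf1 had an FPKM of 22.3 ± 0.92 with ethanol and 3.95 ± 0.25 with tamoxifen at 48 h (SD, n = 2 each), and of 22.7 ± 0.02 and 4.38 ± 0.36 at 72 h, so the labels matched the targeted gene. Stem cell markers were present, with 13 of 14 tested and Sox2 listed at 0 in all 8 libraries. Why Sox2 was at 0 was not tested, so its listing does not show that the cells lack Sox2 RNA. Fibroblast markers moved with the treatment. Of the 29 tested, of 30 listed with none at 0, 27 were higher with tamoxifen at 48 h and 28 at 72 h. Their summed FPKM was 986 to 1028 with ethanol and 1426 to 1439 with tamoxifen at 48 h, and 999 to 1032 against 1909 to 2029 at 72 h. The summed FPKM of the 14 stem cell markers, with Dppa5a as the most abundant, was 96.1% of the ethanol level at 48 h and 83.1% at 72 h. Of the 13 tested 1 was lower at 48 h, and 8 were lower and none higher at 72 h (median -0.33), among them Fbxo15 (-0.65), Nanog (-0.51) and Zfp42 (-0.47). The other 5 did not pass at 72 h. Of these, Utf1 (0.105), Pou5f1 (0.10) and Dppa4 (0.083) had both tamoxifen libraries above both ethanol libraries. Esrrb (-0.043) and Sall4 (-0.148) overlapped. In such bulk RNA, fewer cells of a type and less RNA per cell cannot be told apart, and the part of the fibroblast rise and of the stem cell marker fall in the results below was not tested.

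**Figure D1:**
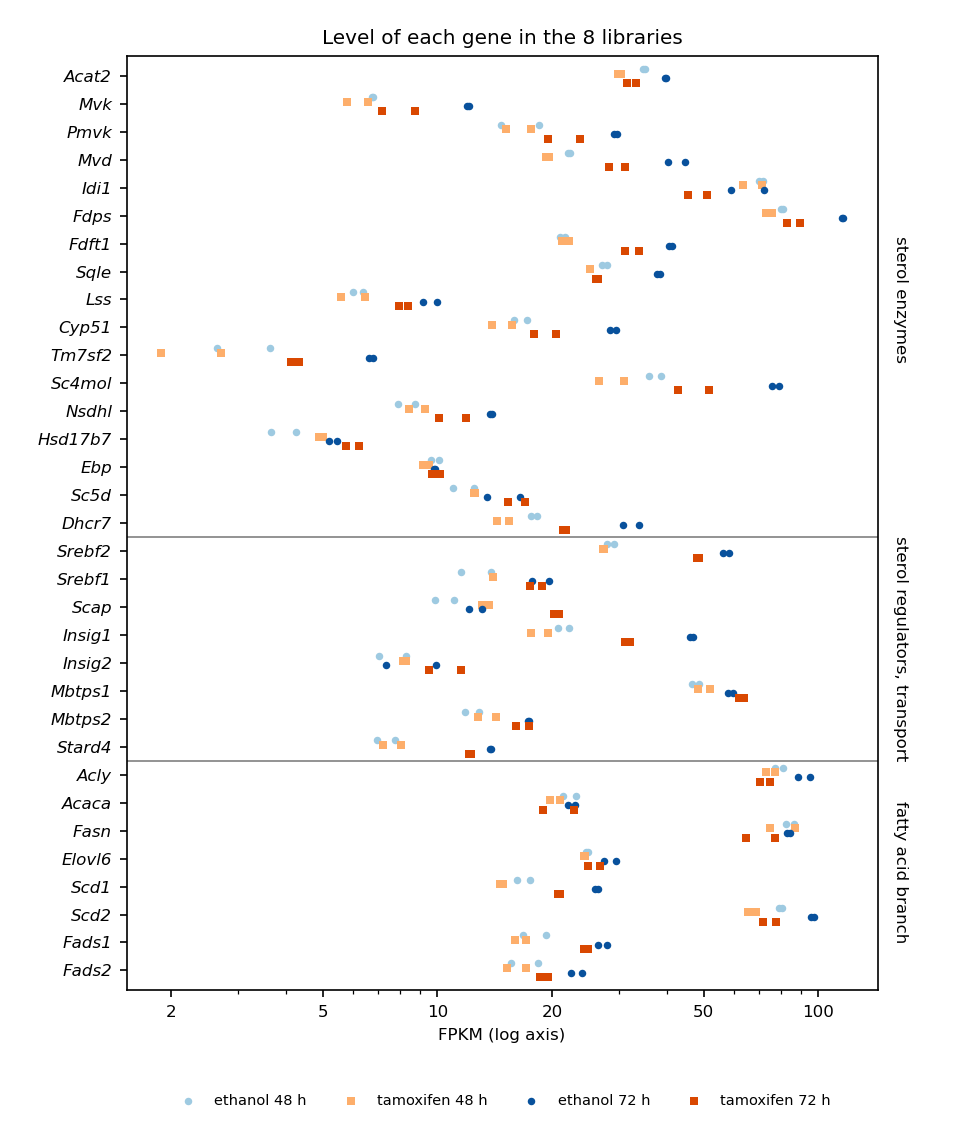
FPKM of each of the 33 genes (log axis) in the 8 libraries, with 1 point per library. Circles are ethanol and squares tamoxifen, with 72 h in the darker shade. For most sterol enzymes the 72 h ethanol points lie to the right of all others, as for Sc4mol at 75.7 and 79.0.

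At 72 h most of the enzymes that make cholesterol were lower with tamoxifen. Of the 17 enzymes measured 13 fell and none rose, with a median change of -0.43 on the log2(FPKM + 1) scale, in limma's moderated test with an adjusted p of at most 0.05 over all 11867 genes. Among all tested genes 18.5% were called lower and 20.1% higher, with a median change of -0.005. The fall reached every step before squalene: all 6 enzymes from Acat2 to Fdps fell (median -0.43). It took in 2 of 3 enzymes from squalene formation to lanosterol and 5 of 8 from lanosterol to cholesterol. The summed FPKM of the 17 enzymes was 583.2 ± 7.9 with ethanol and 428.6 ± 3.1 with tamoxifen (SD, n = 2), which is 73.5% of the ethanol level. The log2(FPKM + 1) scale understates the change of genes with low levels, and Tm7sf2 is the lowest of the set.

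In the mevalonate arm, Acat2 makes acetoacetyl-CoA, Mvk and Pmvk phosphorylate mevalonate in turn, Mvd decarboxylates the product, Idi1 isomerises the isoprene unit and Fdps joins such units into farnesyl diphosphate. Fdps (chr3:88897510-88905889, positions here and below on mm9) was the most abundant gene of the set at 72 h. Its FPKM at 72 h was 116 and 115 with ethanol and 89.6 and 83.1 with tamoxifen, while at 48 h it was 80.9 and 79.7 with ethanol and 72.8 and 75.7 with tamoxifen. The ethanol libraries were above the tamoxifen libraries at both times, but the 48 h change did not pass (-0.11, adjusted p = 0.211 in limma). The gap was wider at 72 h, and the test of that difference did not pass either (adjusted p = 0.0569 in limma). The 72 h change was -0.42 (SE 0.055, adjusted p = 0.000253 in limma). Mvd (chr8:124957496-124967322) read 44.8 and 40.4 with ethanol and 31.1 and 28.3 with tamoxifen at 72 h, a change of -0.50 (SE 0.069, adjusted p = 0.000353). Both tamoxifen libraries were below both ethanol libraries. At 48 h the same gene read 22.3 and 22.0 with ethanol and 19.6 and 19.3 with tamoxifen, and the difference did not pass (adjusted p = 0.124).

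Mvk, the mevalonate kinase whose promoter is printed above, had an FPKM of 12.0 and 12.1 with ethanol and 8.73 and 7.18 with tamoxifen at 72 h. At 48 h its values were 6.74 and 6.79 against 6.57 and 5.79. The tamoxifen values at 72 h thus lay between the 48 h values and the 72 h ethanol values. Acat2, Pmvk and Idi1 also fell at 72 h, by 0.29, 0.43 and 0.43 on the log2(FPKM + 1) scale. The call on Pmvk was lost without ethanol replicate 1, without ethanol replicate 2 or without tamoxifen replicate 2 of 72 h, and the adjusted p reached 0.0954.

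Farnesyl diphosphate passes to Fdft1, which makes squalene, to Sqle, the squalene epoxidase that is a rate-limiting step of the later pathway, and to Lss, which closes the rings to lanosterol. Sqle (chr15:59146647-59162748) had the smallest p of the sterol branch at 72 h. Its FPKM was 38.3 and 37.8 with ethanol and 26.5 and 26.0 with tamoxifen at 72 h, and 27.1 and 27.9 against 25.2 and 25.2 at 48 h. With ethanol the level was higher at 72 h than at 48 h, while the 4 tamoxifen libraries of both times lay between 25.2 and 26.5. The 72 h change was -0.52 (SE 0.054, adjusted p = 6.43e-05). Fdft1 fell by 0.33 (adjusted p = 0.0024 in limma), from 40.5 and 41.3 with ethanol to 33.9 and 31.1 with tamoxifen. Its annotated span shares 773 bases with that of Ctsb, and reads in the shared stretch may be split between them. Lss did not pass (-0.21, adjusted p = 0.0889), although both tamoxifen libraries were below both ethanol libraries.

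Between lanosterol and cholesterol, the methyl groups are removed and double bonds are moved and reduced. Sc4mol (chr8:67196942-67212375), the sterol C-4 methyl oxidase, showed the largest fall of the set. Its FPKM was 75.7 and 79.0 with ethanol and 42.7 and 51.8 with tamoxifen at 72 h, and 36.0 and 38.8 against 31.0 and 26.5 at 48 h. The ethanol libraries were above the tamoxifen libraries at both times. The change was -0.71 at 72 h (SE 0.095, adjusted p = 0.000322) and -0.37 at 48 h (SE 0.095, adjusted p = 0.0306). Dhcr7 (chr7:151009072-151034315), the reductase that ends the pathway, read 33.9 and 30.8 with ethanol and 21.8 and 21.4 with tamoxifen at 72 h. At 48 h its values were 17.6 and 18.3 against 15.5 and 14.3, again without overlap. The changes were -0.56 (SE 0.068, adjusted p = 0.000173) and -0.26 (SE 0.068, adjusted p = 0.036). Cyp51, the lanosterol demethylase, read 28.5 and 29.5 with ethanol and 17.9 and 20.5 with tamoxifen at 72 h, a change of -0.57 (SE 0.083, adjusted p = 0.000494).

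Tm7sf2, a sterol reductase, fell by 0.56 and Nsdhl, a dehydrogenase that acts with Sc4mol in removing the C-4 methyl groups, by 0.31 at 72 h. Both calls are fragile: that on Tm7sf2 was lost without ethanol replicate 2 or tamoxifen replicate 1 of 72 h (adjusted p up to 0.0526), and that on Nsdhl without either ethanol replicate or tamoxifen replicate 1 (up to 0.152). The other 3 enzymes of this arm did not pass. Hsd17b7, the sterol ketone reductase, stood at 0.15 (adjusted p = 0.228), Sc5d, the sterol desaturase, at 0.11 (adjusted p = 0.415) and Ebp, the sterol isomerase, at 0.01 (adjusted p = 0.921). The FPKM of Ebp was 9.82 and 9.84 with ethanol and 10.2 and 9.67 with tamoxifen, so its groups overlapped. Hsd17b7 read 5.45 and 5.19 against 5.76 and 6.24, with both tamoxifen libraries above both ethanol libraries.

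**Figure D2:**
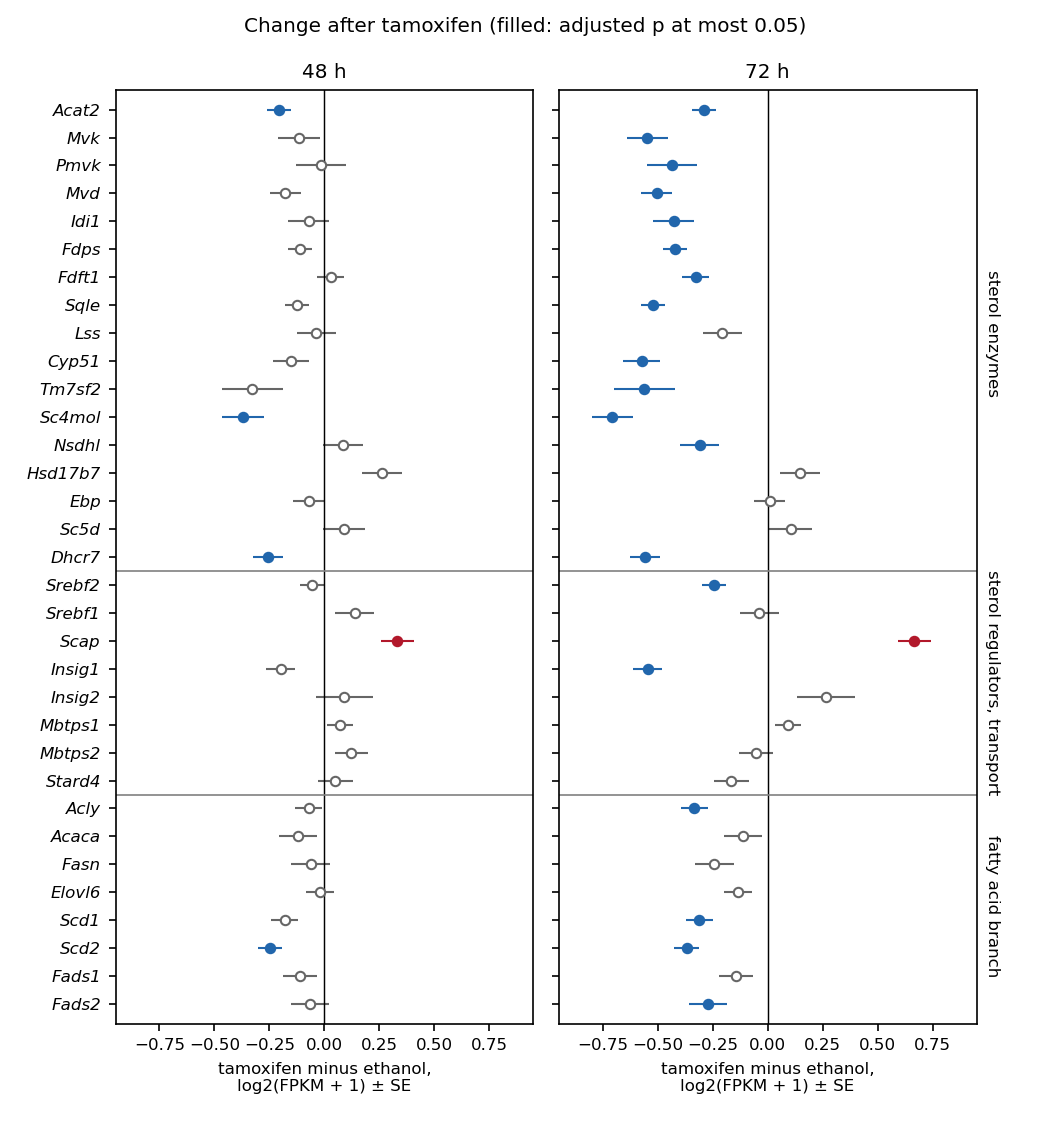
Tamoxifen minus ethanol on the log2(FPKM + 1) scale with the standard error, for each gene at 48 h (left) and 72 h (right). Filled points have an adjusted p of at most 0.05, and zero marks no change. At 48 h 4 genes are called lower and Scap higher, and at 72 h 19 are called lower and Scap higher.

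Of the 8 regulators and carriers 2 genes fell at 72 h, Insig1 and Srebf2, 1 rose, Scap, and 5 did not pass, with a median change of -0.05. With 18.5% of all tested genes lower and 20.1% higher, these counts are near the background. Insig1 (chr5:28397952-28405202) had an FPKM of 46.0 and 47.1 with ethanol and 31.1 and 32.1 with tamoxifen at 72 h, and 22.2 and 20.8 against 19.5 and 17.7 at 48 h. The tamoxifen libraries were lower at both times, but the 48 h change did not pass (-0.20, adjusted p = 0.0761 in limma). The 72 h change was -0.54 (SE 0.066, adjusted p = 0.000159), close to that of Sqle and Dhcr7. Srebf2 (chr15:81977699-82035390), which encodes the SREBP most tied to sterol genes, read 58.4 and 56.1 with ethanol and 47.9 and 48.6 with tamoxifen at 72 h. Its change was -0.24 (SE 0.054, adjusted p = 0.00572), and at 48 h its values were 29.0 and 27.9 against 27.4 and 27.2.

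Scap (chr9:110235797-110287450) went the other way. Its FPKM was 13.1 and 12.1 with ethanol and 20.2 and 20.9 with tamoxifen at 72 h, and 9.88 and 11.0 against 13.7 and 13.1 at 48 h. Every tamoxifen library was above both ethanol libraries of its time. The change was 0.67 at 72 h (SE 0.075, adjusted p = 9.72e-05) and 0.33 at 48 h (SE 0.075, adjusted p = 0.0176). Insig2, the second INSIG, read 7.36 and 9.90 with ethanol and 9.49 and 11.6 with tamoxifen at 72 h, and its groups overlapped (0.27, adjusted p = 0.134). Srebf1 stood at -0.04 (adjusted p = 0.766), Mbtps1 at 0.09 (adjusted p = 0.233) and Mbtps2 at -0.05 (adjusted p = 0.612). Mbtps2 shares 2867 bases of its span with Yy2, and Srebf1 shares 107 with Rai1. Stard4, a protein that carries cholesterol between membranes, stood at -0.17 (adjusted p = 0.123). Over these 8 genes the summed FPKM with tamoxifen was 94.5% of the ethanol level at 72 h, in libraries where the fibroblast markers summed to 194.0%.

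In the fatty acid branch 4 of 8 genes fell at 72 h and none rose, and all 8 fitted changes were negative (median -0.26), as they were under both other scalings, with Acaca at 0.021 without tamoxifen replicate 2 of 72 h. All tested genes gave 18.5% lower and 20.1% higher. The summed FPKM was 399.4 ± 9.2 with ethanol and 329.2 ± 21.4 with tamoxifen (SD, n = 2), 82.4% of the ethanol level. Scd2 (chr19:44368166-44381352), a desaturase that makes monounsaturated fatty acids, read 95.7 and 97.3 with ethanol and 77.4 and 71.7 with tamoxifen at 72 h. At 48 h it read 80.6 and 79.2 against 65.5 and 68.8. Its tamoxifen libraries were lower at both times, with changes of -0.37 at 72 h (SE 0.056, adjusted p = 0.000674) and -0.25 at 48 h (SE 0.056, adjusted p = 0.0178). Scd1, its paralog, read 26.4 and 25.9 with ethanol and 21.0 and 20.8 with tamoxifen at 72 h, a change of -0.31 (SE 0.062, adjusted p = 0.00332). How the authors' counting treated reads that match both paralogs is not given in the sources used here.

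Acly (chr11:100337666-100389314), which supplies cytosolic acetyl-CoA to both branches, read 95.0 and 88.5 with ethanol and 75.0 and 70.3 with tamoxifen at 72 h. At 48 h its groups overlapped, at 80.7 and 77.1 against 72.9 and 77.2. The 72 h change was -0.33 (SE 0.061, adjusted p = 0.00192). Fads2, a desaturase of polyunsaturated fatty acids, read 24.0 and 22.5 against 19.6 and 18.6, a change of -0.27 (SE 0.086, adjusted p = 0.0298). That call was lost on leaving out any 1 of the 4 libraries of 72 h and under 2 other settings, with an adjusted p of up to 0.147.

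The other 4 genes of the branch did not pass at 72 h. Fasn, the fatty acid synthase itself, read 84.3 and 82.8 with ethanol and 76.8 and 64.6 with tamoxifen (-0.24, SE 0.088, adjusted p = 0.0509). Elovl6, which lengthens palmitate, stood at -0.13 (SE 0.063, adjusted p = 0.12) and Fads1, the other desaturase of polyunsaturated fatty acids, at -0.14 (SE 0.076, adjusted p = 0.16). Acaca, the acetyl-CoA carboxylase that commits acetyl-CoA to fatty acids, read 23.0 and 22.0 against 22.9 and 18.9, which overlapped (-0.11, SE 0.087, adjusted p = 0.345). Both tamoxifen libraries were below both ethanol libraries for 7 of the 8 genes, Acaca being the exception, where 34.5% of all tested genes were lower without overlap.

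Set side by side at 72 h, the sterol branch had 15 of 25 genes called lower and 1 higher with a median of -0.31, and the fatty acid branch 4 of 8 lower and none higher with a median of -0.26. The stem cell markers gave 8 of 13 lower and none higher, with a median of -0.33. Within the sterol branch the enzymes (median -0.43) accounted for 13 of the 15. Branches were described by these counts and not tested against each other, since genes of 1 library are not replicates. Over the whole set 24 of 33 genes had both tamoxifen libraries below both ethanol libraries, 3 had both above and 6 overlapped. Across all tested genes 34.5% were lower without overlap and 35.2% higher without overlap.

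**Figure D3:**
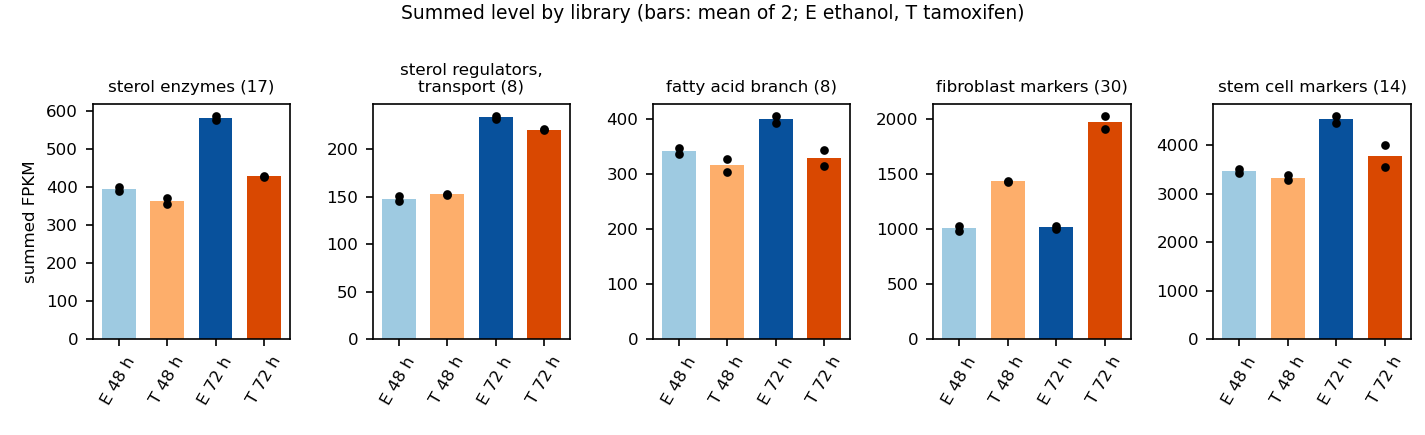
Summed FPKM of 5 gene lists in each library, with bars for the mean of the 2 libraries of a group and points for the libraries, and linear axes from 0. The sterol enzymes sum to 583.2 with ethanol and 428.6 with tamoxifen at 72 h, and the fibroblast markers to 1015.2 and 1969.2.

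At 48 h few genes of the set had moved. Of the 25 sterol branch genes Sc4mol, Acat2 and Dhcr7 were lower and Scap higher, with a median of -0.06, and of the 8 fatty acid genes Scd2 was lower, with a median of -0.09. Among all tested genes 4.47% were called lower and 7.88% higher at 48 h. Acat2 read 35.1 and 34.7 with ethanol and 30.3 and 29.9 with tamoxifen, a change of -0.21 (SE 0.054, adjusted p = 0.033). Both tamoxifen libraries lay below both ethanol libraries for 15 of the 33 genes and above for 4, where all genes gave 26.1% and 32.7%. All 5 calls were lost without ethanol replicate 1 of 48 h. The sterol branch had no lower call without either ethanol replicate or tamoxifen replicate 2 of 48 h, and 1, Sc4mol, without tamoxifen replicate 1. The summed FPKM of the sterol enzymes with tamoxifen was 91.8% of the ethanol level, that of the regulators 103.1% and that of the fatty acid branch 92.2%, while the fibroblast markers stood at 142.2%.

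The changes at 48 h and at 72 h rest on separate libraries. Across the 33 genes they had Pearson's r of 0.82 and Spearman's rho of 0.78, and across all 11867 tested genes 0.69 and 0.64. Points within a time share their libraries, and genes are not independent replicates. On the log2(FPKM + 1) scale Scap had the largest rise and Sc4mol the largest fall at both times. As a share of the ethanol FPKM the lowest at 48 h was Tm7sf2 (73.2%, not called), below Sc4mol (76.9%).

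The 72 h change minus the 48 h change was tested for each gene. In this test 1 of 25 sterol branch genes, Sqle, was called lower, none higher, and none of the 8 fatty acid genes was called either way. Among all tested genes 1.45% were called lower and 2.00% higher. Of the stem cell markers 4 of 13 were called lower, Fbxo15 (-0.58), Klf4 (-0.43), Zfp42 (-0.42) and Nanog (-0.40), and 17 of 29 fibroblast markers were called higher. For Sqle the difference was -0.40 (SE 0.077, adjusted p = 0.0283). Before adjustment 14 of 25 sterol branch genes had a p of at most 0.05, against 2450 of 11867 tested genes. These include Fdft1 (-0.35, adjusted p = 0.055), Fdps (-0.31, adjusted p = 0.0569), Insig1 (-0.34, adjusted p = 0.0726) and Cyp51 (-0.42, adjusted p = 0.0816), which did not pass. The call on Sqle was lost on leaving out any 1 library except tamoxifen replicate 1 of 72 h, with an adjusted p of up to 0.106, while the difference stayed between -0.42 and -0.38.

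The median change with time in culture was larger than that with tamoxifen in the sterol branch. With ethanol 22 of 25 sterol branch genes were higher at 72 h than at 48 h and none lower, with a median of 0.55, and 6 of 8 fatty acid genes were higher, with a median of 0.24. Among all tested genes 38.0% were called higher and 19.2% lower, with a median of 0.11. On the log2(FPKM + 1) scale Insig1 had the largest rise (1.08, SE 0.066), from 22.2 and 20.8 to 46.0 and 47.1 FPKM. Sc4mol (1.03, SE 0.095) and Srebf2 (0.98, SE 0.054) followed on that scale, while in the ratio of FPKM Tm7sf2 (2.14) lay between Insig1 (2.17) and Sc4mol (2.07). Idi1 and Ebp were the enzymes that did not pass, at -0.11 and -0.01, and Insig2 the regulator, at 0.14. After scaling the libraries by median ratios 19 of 25 sterol genes were higher and 1 lower, and 3 of 8 fatty acid genes were higher.

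With tamoxifen the same step in time was smaller for most of the genes. From 48 h to 72 h 20 of 25 sterol branch genes were higher and 1, Idi1, was lower, with a median of 0.35, and 4 of 8 fatty acid genes were higher, with a median of 0.12. All tested genes gave 37.5% higher and 19.6% lower, with a median of 0.12. Scaling by median ratios left 13 sterol genes higher and 1 lower, and 2 fatty acid genes higher and 2 lower. The fitted change with time was lower with tamoxifen than with ethanol in 20 of 25 sterol branch genes and in 7 of 8 fatty acid genes. That count restates the differences above and includes genes without a rise, such as Idi1. Among all 11867 tested genes 6160 had a lower change with tamoxifen. Idi1 went from 71.0 and 63.4 FPKM at 48 h to 45.5 and 51.2 at 72 h with tamoxifen (-0.47, adjusted p = 0.0019 in limma), and from 69.8 and 71.5 to 59.0 and 72.1 with ethanol, which overlapped. Scap was an exception, with a larger rise in time under tamoxifen (0.59) than under ethanol (0.25).

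**Figure D4:**
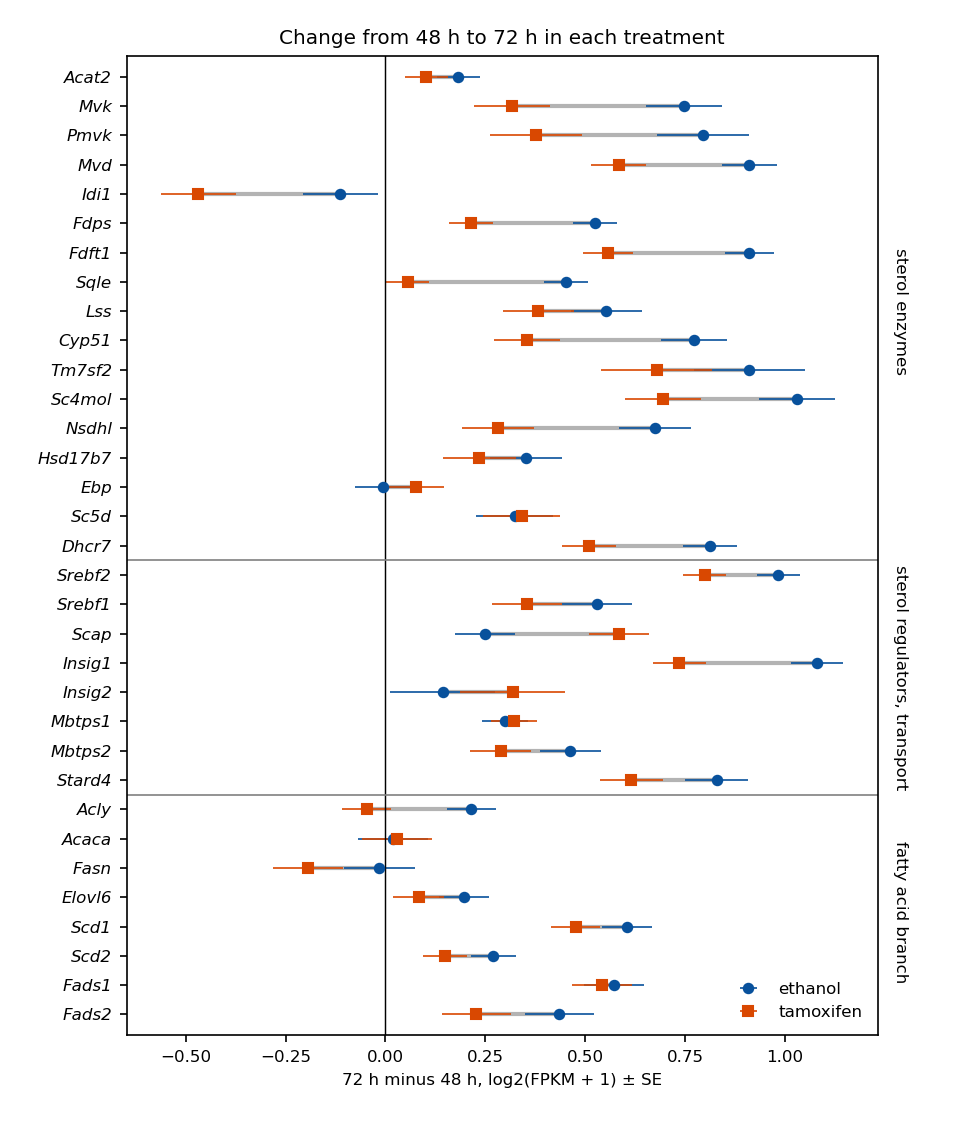
Change from 48 h to 72 h on the log2(FPKM + 1) scale with its standard error, in ethanol (circles) and in tamoxifen (squares), with a grey line joining the pair for each gene. For most genes the square lies left of the circle, as for Sqle at 0.06 against 0.45, and for Scap it lies to the right.

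The authors' deposited tables of comparisons hold their own fold changes for the 33 genes, from the same libraries. In the authors' deposited table for 72 h 20 genes of the set were lower and 1 higher at an adjusted p of 0.05, where that table calls 15.5% of genes lower and 16.5% higher. In the authors' deposited table for 48 h 5 were lower and 1 higher, where it calls 5.31% lower and 6.62% higher. All 5 calls of the limma fit at 48 h and 19 of its 20 at 72 h were called alike in the authors' deposited tables. Insig1 at 48 h (log2 change -0.29, adjusted p = 0.0159) and Elovl6 and Fasn at 72 h (adjusted p = 0.0219 and 0.0385) were called lower in the authors' deposited tables only. Fads2 at 72 h was not called in the authors' deposited table (adjusted p = 0.0596).

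Genes around the pathway moved in both directions at 72 h. Of 10 genes that supply acetyl-CoA and NADPH, 4 fell, among them Acss2, an acetyl-CoA synthetase (-0.44, from 3.21 ± 0.22 to 2.11 ± 0.03 FPKM, SD, n = 2), and Pgls of the pentose phosphate pathway (-0.42), and 1 rose, Taldo1 (0.17). Of 17 other genes of fatty acid synthesis and elongation, 6 fell, with Acacb, the second acetyl-CoA carboxylase, at -0.40 and Acsl1, an acyl-CoA synthetase, at -0.37. In that list 2 rose, Fads3 (0.60) and Elovl1 (0.24). The isoprenoid branch that leaves the pathway at farnesyl diphosphate had 4 of 11 genes lower and 3 higher. Pdss2 (-0.52) and Pdss1 (-0.39), which make the side chain of ubiquinone, were among those that fell, and Icmt (0.47) and Pggt1b (0.32), which modify prenylated proteins, among those that rose.

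Of 16 genes of sterol transport, efflux and storage 4 rose and 1 fell. Abca1, which exports cholesterol, rose by 0.73, from 1.31 ± 0.01 to 2.82 ± 0.18 FPKM (SD, n = 2), and Ch25h, which makes an oxysterol, by 0.51. Lrp8, a lipoprotein receptor, was the 1 gene that fell (-0.34). Of 9 proteins that act on SCAP, INSIG or SREBP turnover 2 rose, Pgrmc1 (0.40) and Faf2 (0.34), and none fell. Among 12 genes of glycerolipid synthesis, Lpin1 rose by 0.74, from 8.33 ± 0.37 to 14.6 ± 0.62 FPKM, and Pcyt1a by 0.26, while 3 fell, with Pemt at -0.44 and Pcyt2 at -0.39. Among 16 genes of mitochondrial fatty acid oxidation 3 rose, with Acadvl at 0.49 and Slc25a20 at 0.46, and 2 fell, Cpt2 at -0.57 and Etfa at -0.25. The shares among all tested genes, 18.5% lower and 20.1% higher, are the background of these counts, and the fibroblast marker sum stood at 194.0% of ethanol in the same libraries.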

How the data were processed

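Per the labels' protocols, mRNA of the 8 libraries was enriched with beads and sequenced as paired ends. The authors deposited 1 table of FPKM per library and 2 tables of comparisons. Build mm9 is named in the submitters' processing notes, which also list Cufflinks 1.3.0, TopHat 1.4.1 and BWA 0.6.1 beside DESeq and HTSeq. What each tool was used for, and whether strand was used, is not given in the sources used here. Group comparisons, as deposited by the authors, hold means of counts divided by size factors, a signal pooled over libraries, with a ratio, its log2 fold change, a p-value and an adjusted p-value, per the file headers. The deposited log2 ratio was turned here to tamoxifen minus ethanol.

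Each library table holds 20789 entries for 20461 identifiers. Entries not marked OK in every library (209) were left out, and the entry of highest mean FPKM was kept per identifier, which left 20388. Starts count from 0 in the files (6934 of 7765 genes checked against RefSeq lengths), so 1 was added. Fragments were estimated from the confidence bounds, taken as 2 SD of a Poisson count, and cover counting error only.

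One limma fit (R 4.3.3, limma 3.58.1) on log2(FPKM + 1), with a mean per group, a mean trend and no rescaling, gave 5 two-sided contrasts, with Benjamini-Hochberg adjustment over 11867 genes and calls at 0.05. Its code was tested on simulated data. The 72 h and 48 h contrasts share no library, while the contrasts over time share theirs with both.

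The genes of the set, the lists and the tests were chosen with earlier results of these data known. Full statistics are given for at most 6 called genes per role by p at 72 h and for the fatty acid branch, and for the 2 largest called changes each way in other lists. Alternatives changed the pseudocount, filter, scaling, trend, replicate block, libraries fitted and handling of repeated entries, and left out each library in turn.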

Additional observations from a re-analysis of the deposited data

Results flagged for a closer look

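Sqle, which encodes squalene epoxidase, was the gene of the set whose change after tamoxifen differed between the 2 times in the test of that difference. The change was -0.52 at 72 h and -0.12 at 48 h on the log2(FPKM + 1) scale, a difference of -0.40 (SE 0.077, adjusted p = 0.0283 in limma). Sqle was lower with tamoxifen in both libraries at both times, but the 48 h change did not pass (adjusted p = 0.17 in limma). The call was lost in 9 of 17 alternatives, with an adjusted p of up to 0.106. No group of 2 libraries could be examined for a library far from the others.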

How the results depend on the processing

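All 79 calls on genes of the set over the 5 contrasts kept their direction in every alternative run, and 52 kept the call in each. At 72 h 16 of 20 calls were kept in each alternative, at 48 h none of 5. The sterol branch had 12 to 15 genes lower at 72 h when 1 library was left out, and the fatty acid branch 3 to 5. Without ethanol replicate 2 of 72 h a second sterol branch gene was higher (range 1 to 2).

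At 48 h the sterol branch had 1 gene lower with no filter on low values and 0 with no trend, and 0 to 3 on leaving out a library, with 0 to 1 higher. The fatty acid branch had 2 lower at 48 h with median-ratio scaling, 0 with quantile normalization and 0 with no trend, and 0 to 1 on leaving out a library. For the difference between times the sterol branch had 4 genes lower with a pseudocount of 5, 0 with no filter, 2 with an FPKM minimum of 5, 2 with quantile normalization and 0 with no trend, and 0 to 3 on leaving out a library, the 3 without tamoxifen replicate 1 of 72 h.

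Median-ratio scaling moved the all-gene median from 0.11 to -0.002 for ethanol over time and from 0.115 to 0.012 for tamoxifen over time. Sterol genes higher over time with tamoxifen then numbered 13, as with quantile normalization. Sterol genes lower over time with ethanol numbered 1 (0 to 1 on leaving out a library). Fatty acid genes higher over time numbered 3 with ethanol and 2 with tamoxifen, and 2 were lower with tamoxifen (0 to 1 on leaving out a library). With no trend 2 fatty acid genes were higher over time with tamoxifen, and 2 to 3 on leaving out a library.

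Replicate numbers did not pair the libraries: deviations of same-numbered libraries from their group means correlated at 0.002 at 48 h and -0.062 at 72 h. With a replicate block 2 fatty acid genes were higher over time with tamoxifen, and the other branch counts stayed within 1.5 times.

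Genes whose sign turned were not called. With median-ratio scaling Fdft1 stood at -0.004 at 48 h and Ebp at -0.011 at 72 h, and with quantile normalization Ebp at -0.020. On leaving out a library, the 48 h values ran from -0.174 to 0.047 for Fads2, -0.172 to 0.045 for Fasn, -0.002 to 0.058 for Fdft1, -0.153 to 0.008 for Idi1, -0.014 to 0.197 for Insig2, -0.128 to 0.055 for Lss, -0.169 to 0.14 for Pmvk and -0.021 to 0.118 for Stard4. The 72 h values ran from -0.241 to 0.021 for Acaca, -0.022 to 0.042 for Ebp, -0.027 to 0.24 for Sc5d and -0.104 to 0.03 for Srebf1. The cause of these moves was not tested. The full fit has 2 libraries a group and 4 residual degrees of freedom. Leaving one library out lowers these degrees of freedom and takes the lone library to vary like the other groups. Tm7sf2, with 29 to 114 implied fragments, is the least precisely counted gene of the set.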
